A study of Mus musculus with 6 samples.

Results

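Prss28, Prss29, Foxa2, Lif, Calb1, Hand2 and Nr2f2 are genes of the uterine glands and of the response of the uterus to progesterone. They were taken by symbol from the deposited table and are 7 of its 36727 genes. They were chosen by earlier results of these same libraries, in which Prss29 counts were confined to 1 library of the high group, and the Prss29 level is therefore a description. RNA was sequenced from ovary of female F4 inbred Swiss albino mice aged 135 to 140 days, which the labels give as estrous-phased. The high litter size group had 3 libraries (replicates 1, 3 and 4) and the low litter size group 3 (replicates 1, 2 and 5). Strain, sex, age, tissue and poly(A) selection were shared by both groups, no other treatment is labelled, and nothing says whether a library is 1 animal or a pool, so each p-value reflects only the variation among these libraries, some of which may be technical.

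In the mouse uterus, progesterone acts through its receptor Pgr in epithelium and stroma and prepares the organ for an embryo. The glands, whose formation and function depend on the transcription factor Foxa2, secrete the cytokine Lif, which is required for implantation, and the implantation serine proteinases encoded by Prss28 and Prss29. Calb1 encodes calbindin, a calcium-binding protein of uterine epithelium. Hand2 and Nr2f2 encode transcription factors of the stroma: Hand2 is induced by progesterone and limits growth factor signals to the epithelium, and Nr2f2 (COUP-TFII) acts in the stroma in response to the epithelial signal Ihh. Nr2f2 is also known from venous and lymphatic endothelium, and Hand2 from sympathetic neurons.

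The 2 protease genes lie side by side on chromosome 17, on the plus strand, with 6777 bases and no other gene of the table between them (GRCm38, GENCODE M21; Prss28 from 25308646 to 25311876, Prss29 from 25318654 to 25322684). The 250 bases before each start are shown because both genes were abundant in high replicate 1 and far lower in every other library (RefSeq, GRCm38.p6, plus strand, chr17:25308396-25308645 and chr17:25318404-25318653). Capitals mark runs of at least 10 bases that are identical at aligned positions.
Prss28: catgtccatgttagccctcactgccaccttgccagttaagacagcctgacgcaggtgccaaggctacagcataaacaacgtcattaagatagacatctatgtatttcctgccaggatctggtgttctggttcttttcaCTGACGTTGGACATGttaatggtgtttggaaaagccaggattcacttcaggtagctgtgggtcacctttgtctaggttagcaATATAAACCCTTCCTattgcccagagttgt
Prss29: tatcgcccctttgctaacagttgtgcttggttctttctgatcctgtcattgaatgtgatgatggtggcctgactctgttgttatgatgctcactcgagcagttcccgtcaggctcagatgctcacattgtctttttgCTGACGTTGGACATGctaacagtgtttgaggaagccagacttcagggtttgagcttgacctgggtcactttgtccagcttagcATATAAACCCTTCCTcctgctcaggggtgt
Of 242 aligned positions 159 were identical (65.7%). The 2 capital runs were of at most 15 bases, and the one nearer the start holds the TATA box letters TATAAA, 29 to 24 bases before the start in both genes. TATAAA, searched on this strand after the sequences were seen, occurs in 7.59% of 32851 mouse promoters of this length. The steroid receptor hexamer TGTTCT, searched on both strands, was found once before Prss28, at 129 to 124 bases before the start, and not before Prss29; it occurs in 16.1% of all promoters. The FOXA core TGTTTAC, on both strands, occurs in 3.17% of them and in none of the 8 windows found for 6 of the genes (Calb1 had no entry). The longest transcripts of the pair were identical at 66.6% of 1132 aligned positions. No 31-base word of the Prss28 transcripts (0 of 1186) occurs in those of Prss29, and 6 and 46 words of Prss28 and Prss29 occur in transcripts of other genes, so few reads can be divided between the pair.

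The libraries differed widely in markers of ovary and of other tissues. The part of these differences in each result below was not tested. Total counts ran from 17620903 to 24758222. Granulosa cell markers (8 genes) summed to 36.9, 27.1 and 477 CPM in high replicates 1, 3 and 4, against 453, 51.8 and 367 CPM in low replicates 1, 2 and 5, where CPM are counts scaled to a common library total with TMM factors. High replicates 1 and 3 and low replicate 2 thus had little granulosa RNA, and Fshr, the receptor for follicle-stimulating hormone, had 0 counts in both of these high libraries. Oocyte markers (8 genes) summed to 2.10, 3.50 and 68.8 CPM in the high libraries, against 15.1, 3.95 and 47.0 CPM in the low ones. Luteal and steroidogenic markers (7 genes) summed to 203, 254 and 9966 CPM in the high libraries, against 771, 95.4 and 3205 CPM in the low ones. High replicates 1 and 3 and low replicate 2 were thus lowest for this list as well. Oviduct markers (7 genes) summed to 133, 185 and 1627 CPM in the high libraries, against 102, 82.8 and 518 CPM in the low ones. Hox genes of the Mullerian tract (9 genes), the embryonic source of oviduct and uterus, summed to 721, 124 and 93.9 CPM in the high libraries, against 174, 189 and 283 CPM in the low ones. Adipocyte markers (7 genes) summed to 3434, 24566 and 2269 CPM in the high libraries, against 319, 3628 and 1243 CPM in the low ones, and were highest in high replicate 3. In bulk tissue, more cells of a type and more RNA per cell cannot be told apart.

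**Figure D1:**
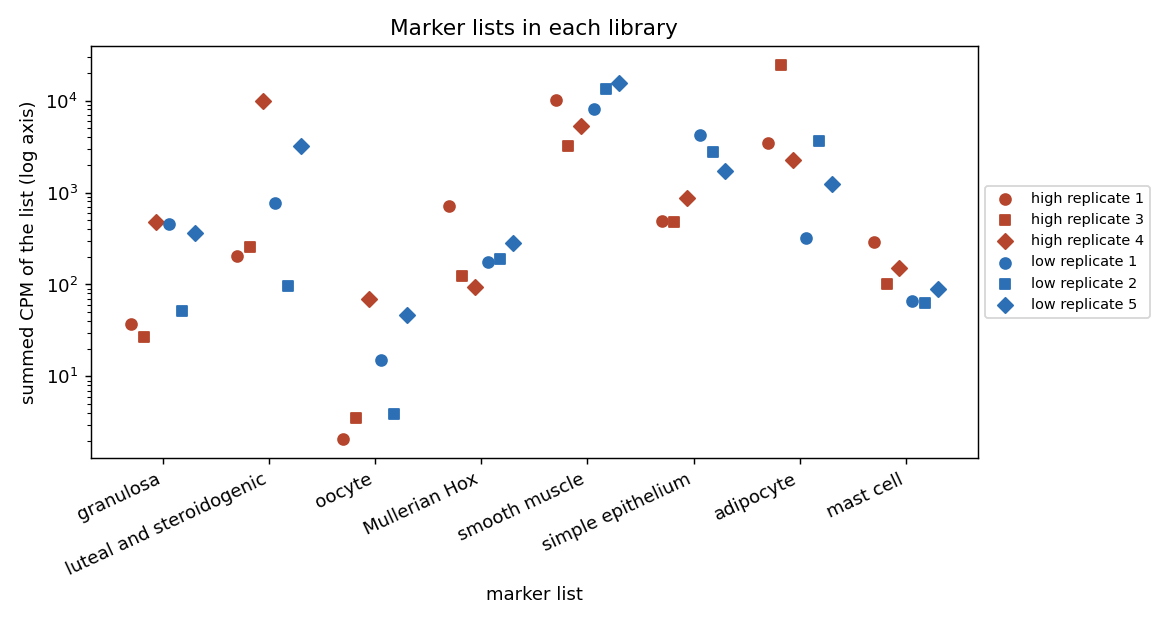
Summed CPM (log axis) of 8 marker lists in each library; each point is 1 library, the 3 high litter size libraries left of the 3 low ones. High replicates 1 and 3 and low replicate 2 lie lowest for granulosa and oocyte markers, and high replicate 1 lies highest for the Mullerian Hox genes.

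Both gland proteases were abundant in high replicate 1 and at no more than 60 counts in any other library. Prss29 had 6457, 5 and 60 counts in high replicates 1, 3 and 4, against 5, 1 and 23 counts in low replicates 1, 2 and 5. These are 330.0, 0.312 and 3.02 CPM in the high libraries, against 0.289, 0.0533 and 0.896 CPM in the low ones. High replicate 1 held 98.6% of the summed CPM and lay 109-fold above the next library, high replicate 4. The rest of the 2 groups overlapped. The group means were 111 ± 190 CPM (high) and 0.413 ± 0.435 CPM (low; SD, n = 3 each), and since the pattern was known when the gene was chosen, no test is given.

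Prss28 was also abundant only in high replicate 1, with 1537, 3 and 1 counts in the high libraries, against 0, 2 and 1 counts in the low ones. Its level was 78.6 CPM in high replicate 1, where 99.5% of its summed CPM lay, and at most 0.187 CPM elsewhere. The 0 counts in low replicate 1 allow a level of up to 0.173 CPM (3 counts). With 1 library of at least 10 counts, Prss28 did not pass the filter on low counts and was not tested. The Prss29 share of the counts of the pair was 80.8% in high replicate 1 (exact 95% binomial interval 79.9 to 81.6%). It was 98.4% in high replicate 4 (60 of 61 counts, 91.2 to 99.96%) and 95.8% in low replicate 5 (23 of 24, 78.9 to 99.9%). The small Prss29 signals of high replicate 4 and low replicate 5 each came with 1 count of Prss28. These intervals cover counting error only. Of the 31-base words, 46 of Prss29 and 6 of Prss28 occur in transcripts of other genes. The part of such shared words in these counts was not tested, so no difference in the ratio is read from them.

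**Figure D2:**
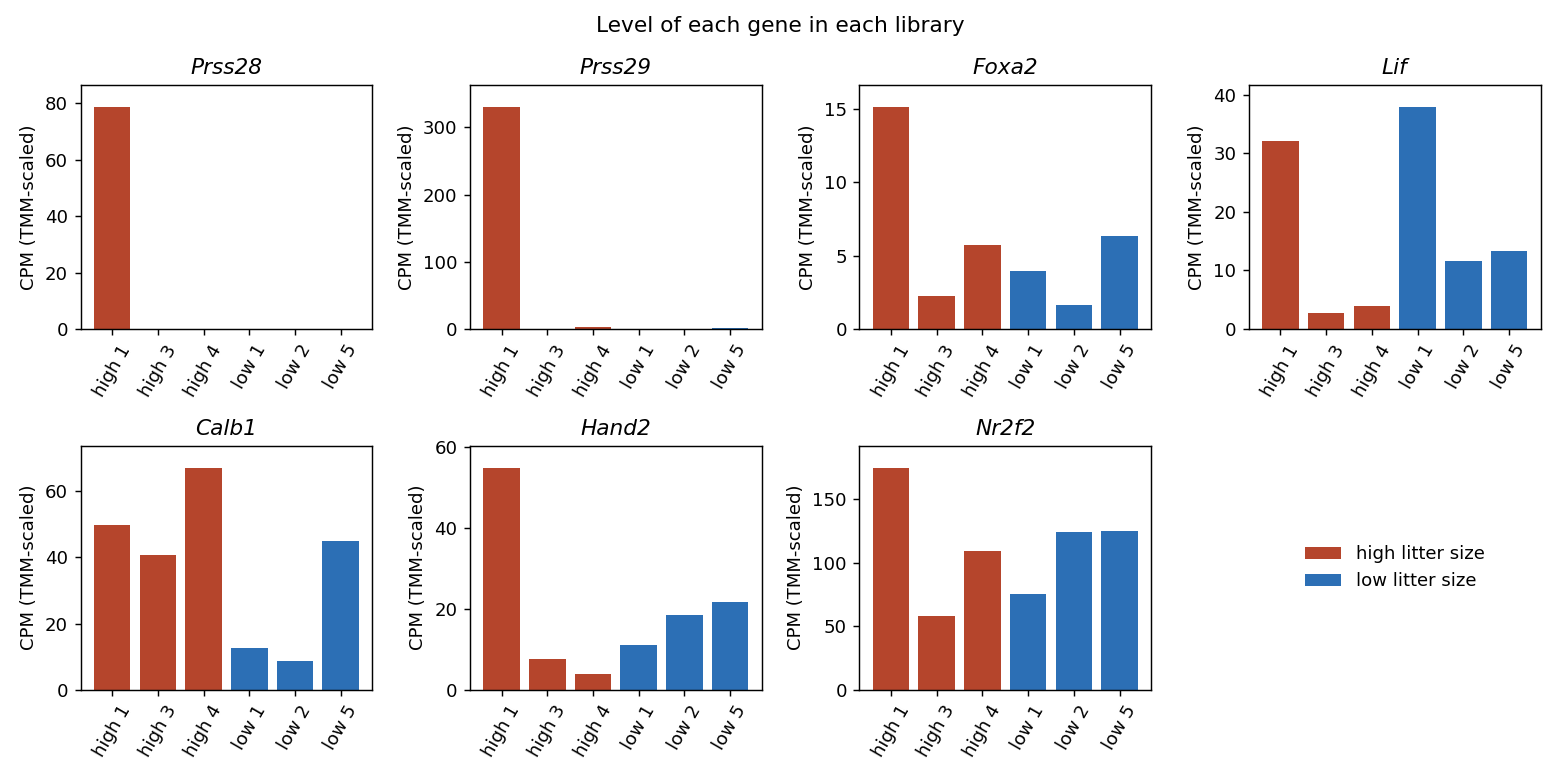
CPM (TMM-scaled, linear axis from 0) of the 7 genes, 1 bar per library, high litter size libraries left and low litter size libraries right. Prss28 and Prss29 have a visible bar almost only in high replicate 1, and Foxa2, Hand2 and Nr2f2 are also highest there.

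Over the whole table, 9 genes had at least 90% of their summed CPM and at least 5 CPM in high replicate 1, the 2 proteases among them, and 3 of the 9 are predicted models. Spink1, a Kazal-type serine protease inhibitor and a gene of the gland list, was second to Prss29 by level. It had 3194, 3 and 2 counts in the high libraries, against 0, 0 and 2 counts in the low ones, or 99.8% of its summed CPM in high replicate 1. The others were Pla2g10, a secreted phospholipase (14.6 CPM in high replicate 1, 93.9% of its summed CPM), Cyp3a59, a cytochrome P450 (9.66 CPM, 98.5%), and Gzmc, a granzyme of cytotoxic lymphocytes (8.28 CPM, 94.3%). By the same rule 18 and 24 genes were confined to high replicates 3 and 4, and 4, 2 and 8 to low replicates 1, 2 and 5, so a set of such genes is not particular to high replicate 1.

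None of the 11 listed genes of the tryptase cluster lay 2-fold above every other library in high replicate 1. Of these 7 were tested, and the 4 that did not pass the filter (Prss21, Prss33, Prss34 and Prss41) had at most 15 counts in any library. Prss27, a protease of stratified epithelium, had 0.511, 2.37 and 22.7 CPM in the high libraries, against 0.116, 0.373 and 0.0780 CPM in the low ones (log2 fold change 5.48, SE 1.56, adjusted p = 0.237 by the quasi-likelihood test of edgeR). It was highest in high replicate 4, and without that library the log2 fold change was 2.87. All high libraries lay above all low ones, as in 8.75% of tested genes. Markers of stratified epithelium (5 genes, none at 0) summed to 165, 90.5 and 474 CPM in the high libraries, against 16.3, 15.3 and 3.20 CPM in the low ones, also highest in high replicate 4. Their part in the Prss27 difference was not tested. Prss32 had 0.102, 0.125 and 1.21 CPM in the high libraries, against 4.27, 2.67 and 0.312 CPM in the low ones, a difference that did not pass (log2 fold change -2.30, SE 1.23, edgeR adjusted p = 0.446; -4.36 without high replicate 4). Markers of mast cells, which make other tryptases of the cluster, summed to 293, 101 and 151 CPM in the high libraries, against 66.8, 62.5 and 88.7 CPM in the low ones (10 genes, none at 0 in any library). They were highest in high replicate 1 too, for 8 of 9 tested genes, against 15.3% of all tested genes. Their part in the protease signal was not tested.

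Foxa2, the gland transcription factor (chromosome 2, 148042877 to 148046969, minus strand), had 15.1, 2.25 and 5.73 CPM in high replicates 1, 3 and 4, against 3.93, 1.65 and 6.31 CPM in low replicates 1, 2 and 5. High replicate 1 was 2.40-fold above the next library, low replicate 5, and the groups overlapped. The means were 7.70 ± 6.66 CPM (high) and 3.96 ± 2.33 CPM (low; SD, n = 3 each), which differed by less than the spread (log2 fold change 0.96, SE 0.78, edgeR adjusted p = 0.623). Without high replicate 1 the log2 fold change was 0.0063, without low replicate 2 it was 0.59 and without low replicate 5 it was 1.47. Its paralog Foxa1 had 0.102, 5.68 and 5.53 CPM in the high libraries, against 0.809, 0.267 and 0.117 CPM in the low ones (log2 fold change 3.26, SE 1.35, edgeR adjusted p = 0.345). High replicate 1, the library of highest Foxa2, had 2 counts of Foxa1, and low replicate 5 had 3, both within the counting floor of 3. Cxcl15, a chemokine of gland epithelium, had 14.5, 3.31 and 1.16 CPM in the high libraries, against 0.0578, 0.213 and 2.03 CPM in the low ones (log2 fold change 3.0, SE 1.39, edgeR adjusted p = 0.387), with 1.46 without high replicate 1 and 5.46 without low replicate 5.

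Lif (chromosome 11, 4257557 to 4272514, plus strand) was not confined to the library of high proteases. It had 32.1, 2.81 and 3.92 CPM in high replicates 1, 3 and 4, against 37.9, 11.7 and 13.3 CPM in low replicates 1, 2 and 5. High replicate 1 and low replicate 1 stood high, while high replicates 3 and 4 lay below every low library. The means were 13.0 ± 16.6 CPM (high) and 20.9 ± 14.7 CPM (low; SD, n = 3 each; log2 fold change -0.69, SE 0.99, edgeR adjusted p = 0.791). Without high replicate 1 the log2 fold change was -2.64 (SE 0.66, edgeR adjusted p = 0.247), and without low replicate 1 it was 0.061. Low replicate 1 had 0.289 CPM of Prss29 and no count of Prss28, so high Lif occurred without the proteases.

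Of the Lif pathway, 9 of 10 listed genes were tested and edgeR called 0, with 0 at an unadjusted p under 0.05. The receptor subunit Lifr had 36.1, 118 and 78.5 CPM in the high libraries, against 105, 68.4 and 70.8 CPM in the low ones (log2 fold change -0.07, SE 0.43, edgeR adjusted p = 0.955; 0.25 without high replicate 1, 0.15 without low replicate 1 and -0.51 without high replicate 3). It was lowest in high replicate 1, a library of high Lif. The kinase Jak1 had 338, 245 and 282 CPM in the high libraries, against 217, 205 and 239 CPM in the low ones, not overlapping between the groups, as in 19.5% of all tested genes (log2 fold change 0.39, SE 0.22, edgeR adjusted p = 0.475; 0.25 without high replicate 1). The related cytokine Il11 stayed at or below 1.48 CPM in every library (log2 fold change -1.17, SE 0.65, edgeR adjusted p = 0.464).

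Calb1 (chromosome 4, 15881264 to 15908064, plus strand) had the smallest p of the 5 tested genes other than Prss29. It had 49.7, 40.7 and 67.0 CPM in high replicates 1, 3 and 4, against 12.6, 8.58 and 44.9 CPM in low replicates 1, 2 and 5. Low replicates 1 and 2 lay below every high library, and low replicate 5 lay within the high range. The means were 52.5 ± 13.4 CPM (high) and 22.0 ± 19.9 CPM (low; SD, n = 3 each), and the difference did not pass (log2 fold change 1.25, SE 0.62, edgeR adjusted p = 0.415). Without low replicate 5 it was 2.30 (SE 0.35, edgeR adjusted p = 0.126). The calcium channel Trpv6 ran the other way, with 4.86, 10.99 and 89.7 CPM in the high libraries, against 330.2, 376 and 103 CPM in the low ones (log2 fold change -2.94, SE 1.14, edgeR adjusted p = 0.328; -5.12 without high replicate 4). All high libraries of Trpv6 lay below all low ones, as in 10.8% of tested genes. Vdr, the vitamin D receptor, had a log2 fold change of 1.24 (SE 0.63, edgeR adjusted p = 0.421; 0.59 without high replicate 4).

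Hand2 (chromosome 8, 57320983 to 57324633, plus strand) had 54.9, 7.68 and 3.92 CPM in high replicates 1, 3 and 4, against 10.97, 18.4 and 21.8 CPM in low replicates 1, 2 and 5. The highest and the lowest library were thus both of the high group, and high replicates 3 and 4 lay below every low library. The means were 22.2 ± 28.4 CPM (high) and 17.1 ± 5.54 CPM (low; SD, n = 3 each; log2 fold change 0.38, SE 0.93, edgeR adjusted p = 0.883). Without high replicate 1 the sign turned (-1.58, SE 0.47, edgeR adjusted p = 0.263). Markers of sympathetic neurons (6 genes) summed to 5.83, 6.74 and 8.95 CPM in the high libraries, against 4.10, 5.81 and 5.07 CPM in the low ones. Of these genes, 2, 4 and 1 had 0 counts in high replicates 1, 3 and 4, against 3, 2 and 2 in low replicates 1, 2 and 5. Th, which encodes tyrosine hydroxylase, was at most 0.302 CPM in any library, so most of each sum came from other genes of the list. Their part in the Hand2 level was not tested.

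Nr2f2 (chromosome 7, 70351944 to 70366735, minus strand) varied least of the 7. It had 175, 57.8 and 109 CPM in high replicates 1, 3 and 4, against 75.2, 124 and 125 CPM in low replicates 1, 2 and 5. The groups overlapped, and the highest library was 3.02-fold above the lowest. The means were 114 ± 58.7 CPM (high) and 108 ± 28.7 CPM (low; SD, n = 3 each; log2 fold change 0.074, SE 0.42, edgeR adjusted p = 0.952), and the sign turned without high replicate 1 (-0.38) and without low replicate 1 (-0.13). Markers of venous and lymphatic endothelium (5 genes, none at 0) summed to 379, 348 and 247 CPM in the high libraries, against 217, 263 and 261 CPM in the low ones. They were highest in high replicate 1, as Nr2f2 was, and next highest in high replicate 3, where Nr2f2 was lowest; their part in the Nr2f2 level was not tested. Its paralog Nr2f1 was scarcer per length in every library and had a log2 fold change of 1.33 (SE 0.63, edgeR adjusted p = 0.393; 0.66 without high replicate 4).

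**Figure D3:**
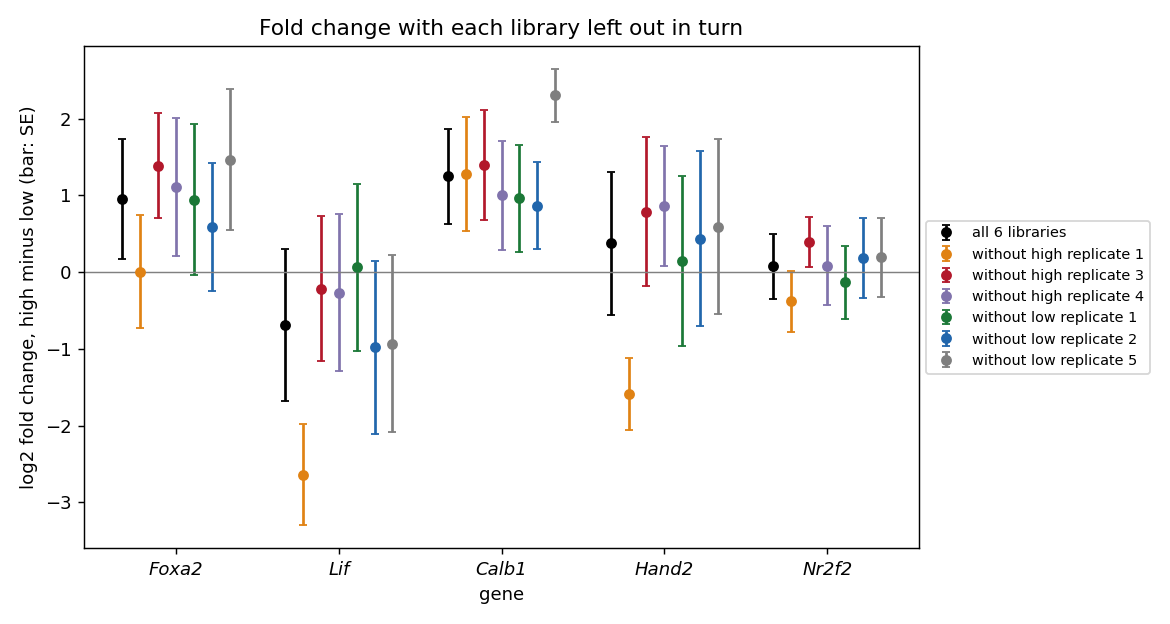
Log2 fold change, high minus low, of the 5 genes tested other than Prss29 (points, with SE bars), with all 6 libraries and with each left out in turn. The value without high replicate 1 is the lowest for Foxa2, Lif, Hand2 and Nr2f2, and that without low replicate 5 is the highest for Calb1.

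Of the 7 genes, 5 had their highest level in high replicate 1, and 4 (both proteases, Foxa2 and Hand2) lay at least 2-fold above every other library there. Over all tested genes these shares were 15.3% and 1.27%. The genes were chosen with the Prss29 level known, so nothing is read from their counts. Of the 5 tested genes other than Prss29, edgeR called 0, and it called 0.00608% of all 16455 tested genes. DESeq2, which called 6.56% of the genes for which it gave an adjusted p (2.26% higher and 4.3% lower), called 0 of the 4 for which it gave one here. Limma voom called 0.0182% of all genes, each of them lower. At an unadjusted p under 0.05 edgeR gave 0 of the 5, and 14.4% of all tested genes. None of the 7 had groups that did not overlap, while 19.5% of all tested genes did.

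Levels can be compared between genes per kilobase of exon. In high replicate 1 the order was Prss29 (279 CPM per kilobase), Prss28 (64.5), Hand2 (23.4), Nr2f2 (20.3), Calb1 (10.3), Lif (7.39) and Foxa2 (6.38). Over the low group it was Nr2f2 (12.6 ± 3.32), Hand2 (7.26 ± 2.35), Lif (4.81 ± 3.38), Calb1 (4.55 ± 4.10), Foxa2 (1.67 ± 0.98), Prss29 (0.350 ± 0.368) and Prss28 (0.0399 ± 0.0443; CPM per kilobase, mean ± SD, n = 3). This is an order of means: over the low libraries the range of each gene overlapped that of the next, Hand2, Lif and Calb1 among them. Within each low library the gland proteases were nevertheless the lowest of the 7, and in high replicate 1 the highest.

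The wider progesterone list was read beside these genes. Like the other lists, it was chosen with earlier results of these data known, so its counts are a description and nothing is read from them. Of its 21 genes 19 were tested, and edgeR called 0 in either direction. At an unadjusted p under 0.05 there were 7, against 14.4% of all tested genes. Of the 19, 15 had a log2 fold change above 0 and 4 below it, while 9095 of all 16455 tested genes lay above 0. The median log2 fold change of the 19 was 1.30, against 0.068 over all tested genes. It was 0.63 without high replicate 1, and 0.22 without the 3 libraries with Inha under 10 CPM (high replicates 1 and 3 and low replicate 2). The highest level lay in high replicate 1 for 10 of the 19, against 15.3% of all tested genes. There, 5 were at least 2-fold above every other library, against 1.27% of all tested genes. These 5 were named after their values were seen: Lrp2, an endocytic receptor, Gli1, a target of hedgehog signalling, Ihh, the epithelial hedgehog ligand induced by progesterone, Il13ra2, a decoy receptor, and Cyp26a1, which degrades retinoic acid. Lrp2 had 165, 23.3 and 9.85 CPM in the high libraries, against 3.75, 3.57 and 14.7 CPM in the low ones. Ihh had 12.7, 2.997 and 3.32 CPM in the high libraries, against 3.29, 0.427 and 3.12 CPM in the low ones. Gli1 had 77.0, 13.5 and 7.94 CPM in the high libraries, against 4.91, 6.93 and 17.0 CPM in the low ones. Sgk1 of the same list was lowest in high replicate 1, with 44.3, 188 and 209 CPM in the high libraries, against 94.3, 143 and 104 CPM in the low ones.

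Ptch1, the hedgehog receptor and itself a hedgehog target, had 130.03, 51.9 and 77.6 CPM in the high libraries, against 32.1, 33.9 and 39.7 CPM in the low ones. All high libraries lay above all low ones, as in 8.75% of tested genes, and the difference did not pass with edgeR (log2 fold change 1.30, SE 0.35, adjusted p = 0.217; 0.0242 with DESeq2; without high replicate 1 the log2 fold change was 0.87). Pgr, the progesterone receptor, ran the other way with 182, 97.3 and 41.4 CPM in the high libraries, against 350.5, 320.5 and 477 CPM in the low ones (log2 fold change -1.84, SE 0.53, edgeR adjusted p = 0.24, DESeq2 0.016). High replicate 1 had the highest Pgr of the high group, but all high libraries lay below all low ones, as in 10.8% of tested genes. Esr1, the oestrogen receptor alpha, had 316, 163 and 228 CPM in the high libraries, against 403, 415 and 362 CPM in the low ones (log2 fold change -0.74, SE 0.30, edgeR adjusted p = 0.336).

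**Figure D4:**
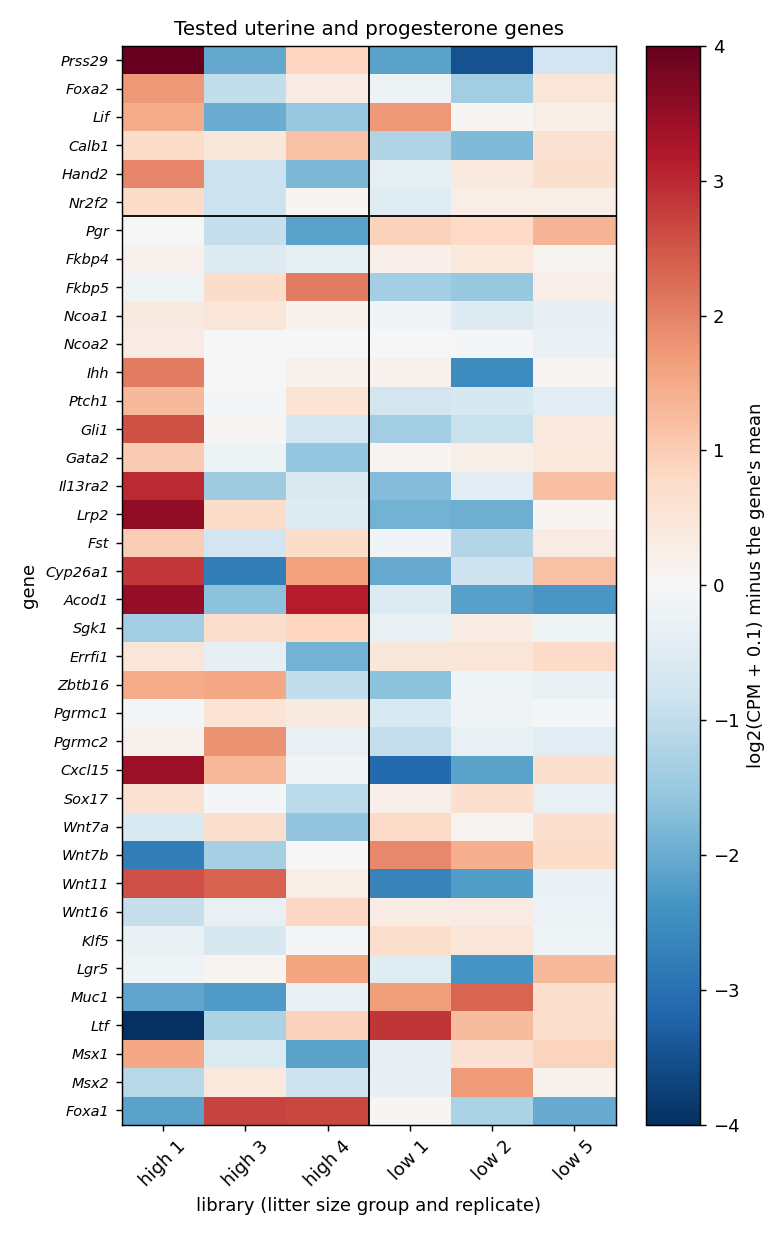
Log2(CPM + 0.1) minus the mean of the gene, for tested genes of the 7 (above the line) and of the progesterone and gland lists (below it), high litter size libraries left of low ones. High replicate 1 is the library of highest Ihh, Gli1, Il13ra2, Lrp2, Cyp26a1 and Cxcl15 and of lowest Ltf.

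In the gland and luminal epithelium list 15 of 16 genes were tested and edgeR called 0. At an unadjusted p under 0.05 there were 4, against 14.4% of all tested genes. Of the 15, 5 genes had a log2 fold change above 0 and 10 below it. The median log2 fold change was -0.15, and -0.71 without high replicate 1. The mucin Muc1 had 17.5, 15.5 and 61.2 CPM in the high libraries, against 242, 374 and 119 CPM in the low ones (log2 fold change -2.96, SE 0.69, edgeR adjusted p = 0.19, DESeq2 0.00061). Wnt11, a secreted Wnt ligand, had 19.2, 16.6 and 3.77 CPM in the high libraries, against 0.404, 0.587 and 2.57 CPM in the low ones (log2 fold change 3.44, SE 0.93, edgeR adjusted p = 0.22, DESeq2 0.00251). Both were without overlap of the groups, as in 19.5% of all tested genes. Ltf, lactotransferrin, an oestrogen-induced secretory protein of uterine epithelium named after its values were seen, had 89.1, 813 and 3684 CPM in the high libraries, against 14146, 4676 and 3186 CPM in the low ones. High replicate 1, the library of highest Prss28, Prss29 and Spink1, thus had the lowest Ltf. Markers of simple epithelium summed to 486, 474 and 871 CPM in the high libraries, against 4178, 2732 and 1693 CPM in the low ones (8 genes, none at 0), so that the gland proteases were highest in a library where general epithelial markers were near their lowest. Their part in the differences of Muc1 and Ltf was not tested.

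In the stromal list all 13 genes were tested and edgeR called 0. At an unadjusted p under 0.05 there were 2, against 14.4% of all tested genes. The median log2 fold change was 0.38, and -0.067 without high replicate 4. Hoxa10 and Hoxa11, homeobox genes of the uterus, were the 2 at least 2-fold above every other library in high replicate 1, against 1.27% of all tested genes. Both are also among the Hox genes of the Mullerian tract summed above, so this is not a separate result. Hoxa10 had 293, 43.0 and 29.8 CPM in the high libraries, against 65.4, 68.0 and 98.3 CPM in the low ones. Hoxa11 had 205, 14.2 and 19.4 CPM in the high libraries, against 41.7, 35.9 and 62.2 CPM in the low ones. Their order resembles that of Hand2, with high replicate 1 highest, low replicate 5 next and high replicates 3 and 4 lowest. Wnt5a, a stromal Wnt ligand, had 126, 88.8 and 97.9 CPM in the high libraries, against 147, 147 and 268 CPM in the low ones (log2 fold change -0.84, SE 0.31, edgeR adjusted p = 0.314; -0.49 without low replicate 5). Smooth muscle markers, abundant in the uterine wall, summed to 10140, 3169 and 5315 CPM in the high libraries, against 8095, 13203 and 15623 CPM in the low ones (7 genes, none at 0).

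Over all 7 lists, 70 of 81 genes other than the members were tested and edgeR called 0. At an unadjusted p under 0.05 there were 15, against 14.4% of all tested genes. DESeq2 called 9 of 65 with an adjusted p (13.8%, against 6.56% of all genes): Wnt11, Ptch1, Lrp2, Acod1 and Prss27 as higher and Muc1, Wnt7b, Pgr and Trpv6 as lower. The other lists had a median log2 fold change of 0.086 (Lif pathway; -0.047 without high replicate 3), -0.11 (calcium transport, 7 tested; 0.076 without high replicate 4), -0.31 (tryptase cluster; 0.079 without high replicate 1) and 1.33 (paralogs, 3 tested, 0.66 without high replicate 4).

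The genes whose level was most like each of 5 members over the 6 libraries were ranked by Pearson's r of log2 CPM among genes of at least 1 CPM on average, as a description. For Foxa2 they were Rad51ap1, Atad2 and Pcdhb16 (r of 0.995, 0.99 and 0.986). Those of Lif were Eri3, Fam185a and Clk2 (0.998, 0.994 and 0.991), and those of Calb1 were Adgrl3, Ndufa4l2 and Fndc5 (0.988, 0.987 and 0.981). Hand2 was most like Fnbp1, Atp2b4 and Hsp90ab1 (0.984, 0.981 and 0.977), and Nr2f2 most like Samd14, Nckap5l and Vash2 (0.99, 0.987 and 0.987). These are the highest r among 14491 genes, a pool without Prss28, which was not tested. No member was among the 3 genes most like another. With 3 places in so large a pool, this does not show whether the members go together.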

How the data were processed

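Per the labels' protocols, poly(A)-selected RNA was sequenced with a TruSeq kit. The deposited values are estimated counts per Ensembl gene, whole numbers in all 6 columns; the authors used kallisto, Trim Galore and DESeq2 with GRCm38, per the submitters' processing notes, and the versions, annotation release and strand setting are not given in the sources used here. Symbols and coordinates came from GENCODE M21 (35869 of 36727 genes). Genes passing filterByExpr (minimum count 10, total 15) were fitted with edgeR 4.0.16 (TMM, quasi-likelihood, Benjamini-Hochberg, threshold 0.05), with no covariate. The SE is the log2 fold change divided by the root of F. DESeq2 1.42.0 and limma voom 3.58.1 were alternatives, with other scaling and filters and each library left out. The fit was tested on simulated data. Members and lists were chosen with earlier results of these data known. Of each list the 2 tested genes of smallest p are named, always Pgr, Esr1, Lifr and Cxcl15, the genes confined to the Prss29 library, and for other members the 3 of highest correlation of log2 CPM. Proteins are not used here. Total counts were 17620903 to 24758222.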

Additional observations from a re-analysis of the deposited data

How the results depend on the processing

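No paired analysis was possible because the labels name no pairs. Replicate 1 is the sole number found in both litter size groups, and nothing says that a shared number marks a pair. Of all genes, edgeR called 1 (lower), DESeq2 1026 (354 higher and 672 lower), limma voom 3, and edgeR with 1 library left out 0 to 1; of the pathway genes DESeq2 called 9. Leaving out the 3 libraries with Inha under 10 CPM together, chosen after the data were seen, left high replicate 4 against low replicates 1 and 5, with the lone library assumed to vary like the others, and gave 0 calls. The log2 fold change of Hand2 turned to -0.48 with limma voom and to -2.09 without these 3 libraries, and that of Nr2f2 to -0.029 with limma voom. With 1 library left out, the log2 fold change ran from -2.64 to 0.061 for Lif, from -1.58 to 0.86 for Hand2, from -0.38 to 0.39 for Nr2f2 and from -0.51 to 0.25 for Lifr. The cause was not tested. Foxa2 and Calb1 kept their sign in all 12 alternatives. The log2 fold change of Foxa2 nevertheless fell to 0.0063 (SE 0.73) without high replicate 1, and to 0.13 without the 3 libraries with Inha under 10 CPM. The filter of at least 1 CPM in 3 libraries gives no value for Prss29. Prss28 was fitted only without the low-count filter, where edgeR called 0 of the 6 members other than Prss29. The median over all tested genes lay between -0.04 and 0.088. With 3 libraries a group and counts of 0 to 3 for Prss28 outside high replicate 1, differences among the other libraries were not detectable at this depth.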
